A study of Rattus norvegicus with 15 samples.

Results

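The constitutive proteasome genes were examined in kidneys of 5-week-old rats. The proteasome is the protease complex that degrades proteins tagged with ubiquitin. Its core particle is a barrel of alpha rings, which gate the entrance (genes named Psma), and beta rings, of which the subunits Psmb5, Psmb6 and Psmb7 carry the proteolytic sites (genes named Psmb). The regulatory particle caps the core: a ring of ATPases (Psmc) unfolds the substrate, and non-ATPase subunits (Psmd) bind and remove ubiquitin. Activators (Psme) can replace that cap, and some of them are induced by interferon, as are the immunoproteasome subunits Psmb8, Psmb9 and Psmb10, which take the place of catalytic beta subunits and were left out of the set. In the kidney, as elsewhere, these genes are expressed in nearly all cells.

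Members were the probe sets whose array annotation gives exactly 1 gene symbol consisting of Psma, Psmb, Psmc, Psmd or Psme and a number. They came to 84 of 26379 probe sets and 37 of 10969 named genes. The core particle was represented by 13 genes and 34 probe sets, the regulatory particle by 17 genes and 31 probe sets. The genes Psmd5, Psmd9 and Psmd10 encode chaperones that assemble the regulatory particle and are given apart (6 probe sets), as are the activators Psme1 to Psme4 (13 probe sets). Of the 40 genes of these names in RefSeq, Psma8, Psmb6 and Psmb11 had no probe set with 1 symbol. Annotation with several symbols left out 6 probe sets, among them those of Psmb6. Another 3 probe sets, of Psmc3ip and Psme3ip1, were left out because these genes encode other proteins.

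RNA was hybridised to 3 oligonucleotide array designs (A, B and C), each with kidneys numbered 1 to 5. Kidneys 1 to 3 came from Dahl salt-sensitive rats (Dahl S), an inbred strain that becomes hypertensive when fed salt. On B and C, kidneys 4 and 5 are described as congenic for chromosome 10, that is, Dahl S rats with a segment of that chromosome from another strain, so these designs compare 3 Dahl S with 2 congenic kidneys. On A, kidneys 4 and 5 are described as Dahl S although the same numbers are congenic elsewhere. Their strain is treated as unsettled, and their values are given one by one. No treatment is described, the labels do not say whether kidneys came from separate animals, and neither the donor strain nor the extent of the segment is given in the sources used here. The p-values therefore set a difference against the spread among these kidneys, which may be technical. That spread was estimated in part from all tested probe sets of the design.

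Values are linear signal intensities, on which the mean without the top and bottom 2% was between 1000.6 and 1001.3 on every array. The median signal per array was between 294.5 and 334.3 on A, 472.8 and 519.5 on B, and 491.3 and 524.4 on C. A probe set was tested where its mean over the 5 arrays reached the median signal of the design, which 70 of the 84 members did (40 on A, 15 on B and 15 on C). At least 1 probe set was tested for 36 of the 37 genes. The exception was Psmd7, a scaffold of the deubiquitinating part of the regulatory particle, at 266.6, 373.5, 373.4, 392.3 and 471.3 in kidneys 1 to 5 on C. All 17 probe sets of the 9 kidney marker genes on A were above that limit, against 4 of 5 for blood, 1 of 4 for adrenal, 1 of 5 for muscle and 1 of 6 for adipose markers. Probe sets differ in sensitivity, so signals of different probe sets were not compared. In whole kidney, fewer cells of a type and less RNA per cell cannot be told apart.

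Promoter sequence is given for a pair of genes with tested probe sets on both A and B: Psmb5, a catalytic subunit, and Psmd11, a regulatory subunit on chromosome 10 for which 1 probe set on each design placed kidney 1 lowest and kidneys 4 and 5 highest. The 250 bases before the start of each gene are those of the RefSeq annotation of rat assembly GRCr8, with Psmb5 at chr15:32047380-32047629 on the minus strand and Psmd11 at chr10:65932093-65932342 on the plus strand. Capitals mark the antioxidant response element TGACNNNGC, which the transcription factors Nfe2l1 and Nfe2l2 bind, searched on both strands.
Psmb5: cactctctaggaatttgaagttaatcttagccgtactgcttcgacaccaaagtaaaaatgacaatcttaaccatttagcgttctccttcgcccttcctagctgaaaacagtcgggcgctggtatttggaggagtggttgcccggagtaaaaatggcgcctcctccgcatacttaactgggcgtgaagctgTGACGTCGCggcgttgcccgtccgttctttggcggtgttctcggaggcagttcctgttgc
Psmd11: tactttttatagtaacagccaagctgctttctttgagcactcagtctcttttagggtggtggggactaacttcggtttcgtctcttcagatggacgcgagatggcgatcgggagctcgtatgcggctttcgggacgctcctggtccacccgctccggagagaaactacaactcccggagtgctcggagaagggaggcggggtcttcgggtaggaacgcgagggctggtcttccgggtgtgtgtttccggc

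The match in Psmb5 starts 60 bases before the gene, and the window of Psmd11 held none. Of the 37 genes, 33 had a sequence in the promoter table. This element was in 6 of those 33 windows (18.2%), those of Psma3, Psmb2, Psmb5, Psmd1, Psmd9 and Psme4, and in 10.1% of all 33469 windows of that length. The CCAAT box, the letters CCAAT on either strand, was in 9 of 12 core particle windows (75%), 5 of 14 regulatory particle windows (35.7%) and 34.0% of all windows. Neither window shown held CCAAT, so the motifs do not overlap there. A match is a description of the sequence and not a site of binding.

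Among the Dahl S kidneys of array A, the core particle varied about as much as the typical tested probe set, and the regulatory particle less. The median probe set of the core particle had a highest signal 1.31 times its lowest over kidneys 1 to 3, and that of the regulatory particle 1.23 times, against 1.29 times over all 4411 tested probe sets. The ratio was above 1.5 for 3 of 21 core and 0 of 15 regulatory particle probe sets (all tested: 21.7%). The members were brighter (median mean signal 2841 for the core and 1373 for the regulatory particle) than all tested probe sets (1001), and the part of brightness in their spread was not tested. On B the corresponding ratios were 1.12 for 3 core and 1.21 for 7 regulatory probe sets (all tested 1.24), and on C 1.10 for 5 core and 1.17 for 4 regulatory probe sets (all tested 1.23). Above 1.5 were 0 of 3 core and 2 of 7 regulatory probe sets on B (all tested: 16.2%). On C they were 1 of 5 core and 0 of 4 regulatory probe sets (all tested: 13.7%).

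**Figure D1:**
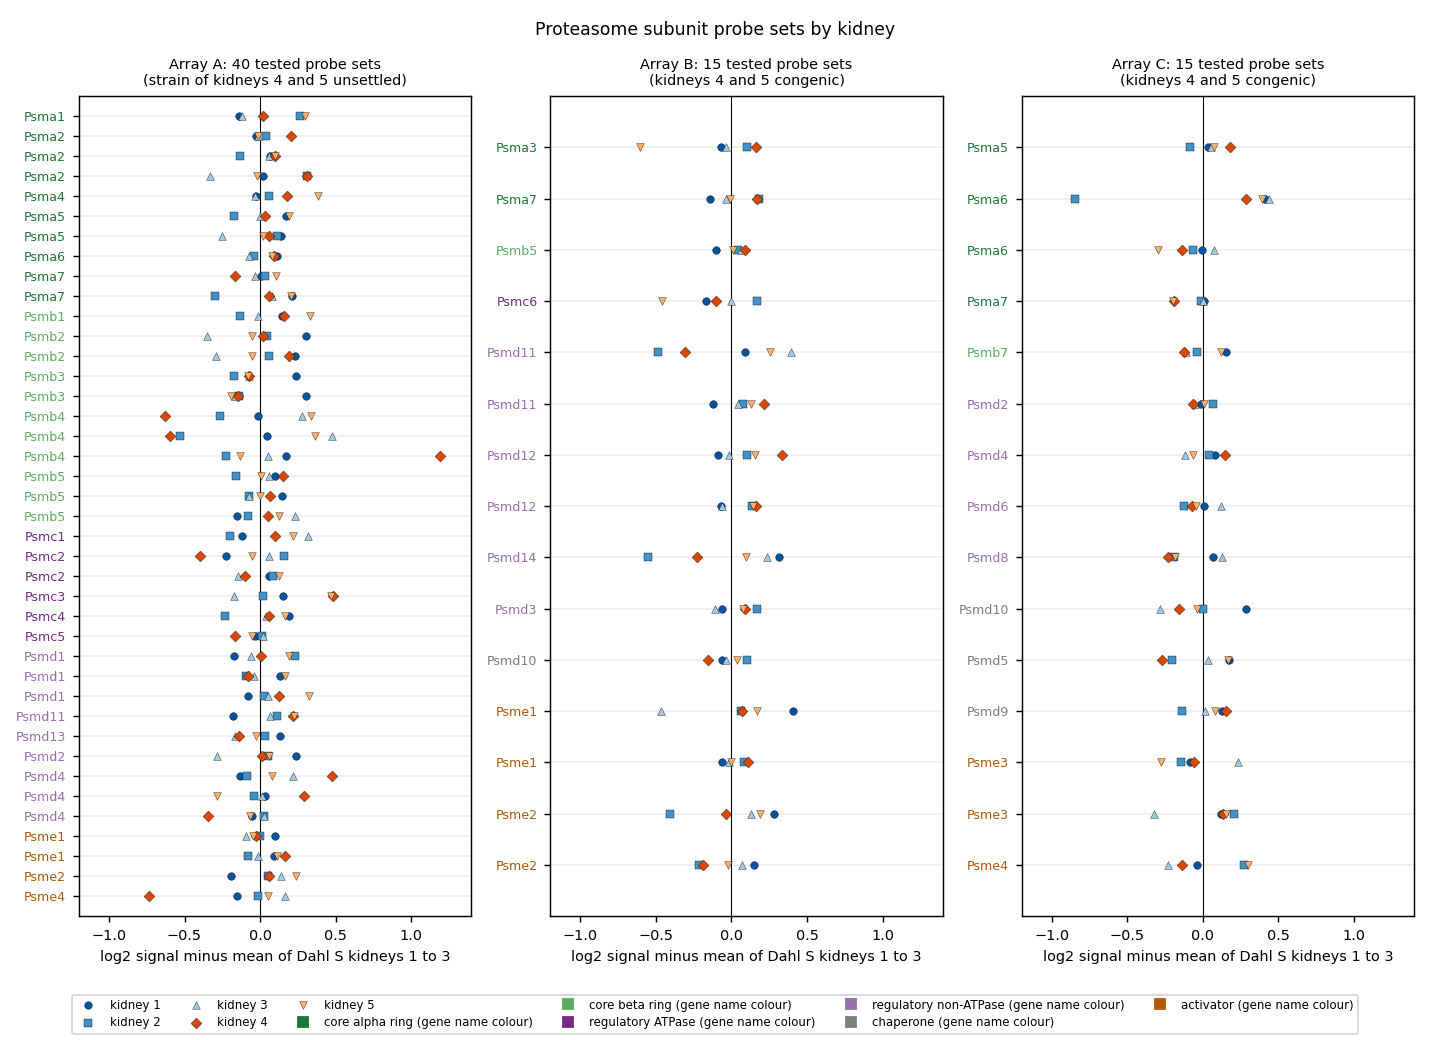
Log2 signal of each tested proteasome probe set minus the mean of Dahl S kidneys 1 to 3, 1 row per probe set and 1 symbol per kidney, for arrays A, B and C; gene names are coloured by role. Most symbols lie near 0, and the widest rows are those of Psmb4 on A and 1 Psma6 probe set on C.

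In the alpha ring on A, the steadiest core probe sets were those of Psma2, Psma7 and Psma4. One Psma2 probe set measured 946.9, 989.4 and 955.7 in Dahl S kidneys 1 to 3 and 1108.6 and 954.0 in kidneys 4 and 5. The Psma7 probe set D30804_at measured 3139.2, 3192.8 and 3048.3, then 2792.9 and 3368.8. Psma4 measured 1409.4, 1493.4 and 1402.1 in Dahl S kidneys and 1621.5 and 1869.0 in kidneys 4 and 5, both above the Dahl S range. The other Psma2 probe set of the same accession measured 2304.1, 2008.2 and 2295.4, then 2357.2 and 2357.5, with a wider Dahl S range (1.15-fold against 1.04-fold). A probe set from another Psma2 accession was among the widest in the core, at 1948.8, 2381.7 and 1528.1, with 2389.0 and 1894.9 in kidneys 4 and 5.

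Within the beta ring, Psmb5, the chymotrypsin-like catalytic subunit, was measured by 3 probe sets on A and 1 on B. D45247_g_at read 9140.8, 7841.9 and 7867.7 in kidneys 1 to 3 and 8646.3 and 8247.8 in kidneys 4 and 5. On B the Psmb5 probe set read 2506.0, 2769.6 and 2805.5 in Dahl S and 2866.5 and 2714.3 in congenic kidneys. The third Psmb5 probe set on A, rc_AA891226_s_at, read 3859.7, 4046.3 and 5022.0, then 4434.1 and 4661.4, so that kidney 1 was the lowest there and on B. The Dahl S range was 1.17-fold to 1.30-fold over the 3 probe sets on A and 1.12-fold on B. For Psmb2, another beta subunit, both probe sets on A had kidney 1 highest and kidney 3 lowest: D21799_at measured 1339.2, 1114.8 and 848.4, then 1099.2 and 1041.7, and D21799_g_at 3817.3, 3395.0 and 2658.2, then 3721.4 and 3138.0. The Psmb3 probe sets, of a structural beta subunit encoded on chromosome 10, also had kidney 1 highest, at 2921.3 and 3645.1, with all other kidneys between 2196.2 and 2352.1 for D21800_at and between 2580.2 and 2674.9 for D21800_g_at.

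Psmb4, a beta subunit needed for assembly of the core, had the widest Dahl S range among the core probe sets of A. The probe set L17127_g_at measured 5570.9, 3738.2 and 7512.1 in Dahl S kidneys 1 to 3 and 3562.2 and 6923.8 in kidneys 4 and 5. L17127_at, of the same accession, measured 6584.4, 5532.2 and 8036.4, then 4298.7 and 8379.7. Kidneys 2 and 4 were the lowest on both. The third Psmb4 probe set, rc_AI172162_at, went the other way in kidney 4, with 5504.7 there and 2709.1, 2056.2, 2499.7 and 2195.7 in kidneys 1, 2, 3 and 5. The probe sets of Psmb4 therefore give no single order of the kidneys.

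**Figure D2:**
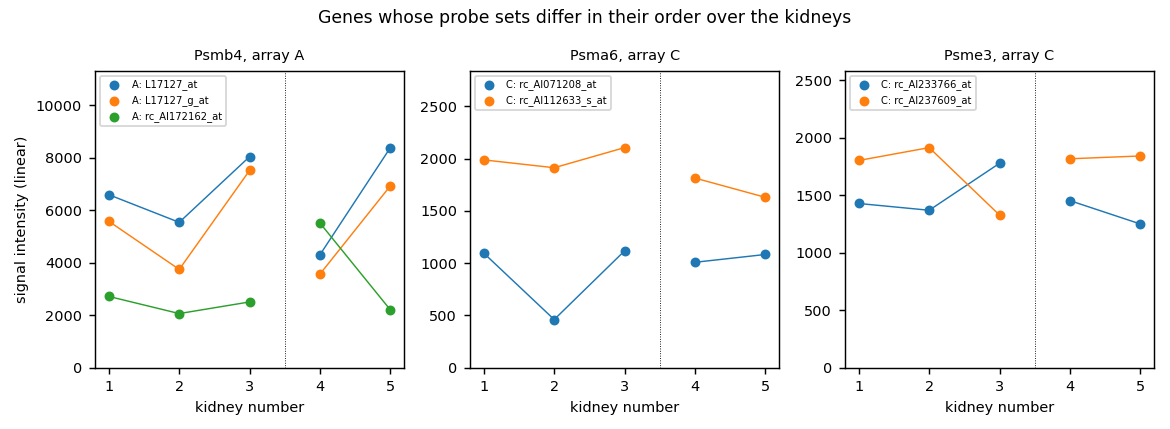
Linear signal of each tested probe set of Psmb4 (array A), Psma6 (array C) and Psme3 (array C) against the kidney number; kidneys 1 to 3 are Dahl S and the dotted line separates kidneys 4 and 5. In kidney 4 the Psmb4 probe set rc_AI172162_at was at its highest (5504.7) while both L17127 probe sets were at their lowest (4298.7 and 3562.2).

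In the regulatory particle on A, the ATPase Psmc5, encoded on chromosome 10, was the steadiest, at 996.6, 1028.4 and 1036.9 in Dahl S kidneys and 910.6 and 983.8 in kidneys 4 and 5. The ATPases Psmc1 and Psmc4 were among the widest: Psmc1 measured 1510.1, 1433.6 and 2049.1, then 1762.3 and 1908.4, and Psmc4 1418.7, 1055.3 and 1277.5, then 1291.1 and 1390.2. Psmd2, the largest scaffold beside Psmd1, measured 2130.1, 1870.2 and 1480.9, then 1824.7 and 1885.8. On C the Psmd2 signal was 4986.2, 5260.0 and 4852.8 in Dahl S and 4799.5 and 5056.5 in congenic kidneys, so the low value of kidney 3 on A had no counterpart of that size on C.

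Psmd4, a ubiquitin receptor, was read by 3 probe sets on A, which differed in where they placed kidney 4. AB017188_g_at measured 2356.3, 2242.2 and 2324.8 in kidneys 1 to 3, then 2819.8 and 1890.7. AB017188_at measured 786.0, 811.4 and 1001.6, then 1199.9 and 910.2, so that kidney 4 was the highest on both. The third, rc_AA799887_s_at, measured 1409.6, 1490.6 and 1494.4, then 1155.3 in kidney 4, its lowest value, and 1397.0. On C Psmd4 measured 2718.6, 2641.9 and 2374.5 in Dahl S and 2849.5 and 2455.2 in congenic kidneys, again with kidney 4 highest.

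How often probe sets of one gene placed the same kidney highest was counted over the tested probe sets. Among members on A this held for 5 of 21 pairs of probe sets (23.8%), and among all genes of A for 36.0% of 1197 pairs. On B it was 2 of 4 pairs of members, those of Psmd12 and Psme2 (all genes 26% of 565 pairs), and on C 1 of 2, that of Psma6 (all genes 28.5% of 529 pairs). Pairs from a gene with 3 probe sets are not independent.

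Taken by kidney, the medians of both particles lay between −0.12 and 0.16 (log2) from the Dahl S mean over the designs. On A the median log2 difference of the 21 core probe sets from the Dahl S mean was 0.11, −0.08 and −0.03 in kidneys 1 to 3, 0.06 in kidney 4 and 0.08 in kidney 5. For the 15 regulatory probe sets it was −0.03, 0.03 and 0.02 in kidneys 1 to 3, 0.01 in kidney 4 and 0.13 in kidney 5. The medians over all tested probe sets of A lay between −0.05 and 0.03. In kidney 5, 13 of 21 core and 10 of 15 regulatory probe sets lay above the Dahl S mean (all tested: 53.7%), and in kidney 4, 16 of 21 and 9 of 15 (all tested: 43.8%). The 4 tested blood marker probe sets on A also lay above the Dahl S mean in kidney 5, with a median of 0.30, against 0.05 in kidney 4. Their summed signal was between 19627 and 26246 in Dahl S kidneys, 25144 in kidney 4 and 28744 in kidney 5, and their part in the proteasome values was not tested. Dahl S kidneys are part of the mean they are set against, so their own differences are the smaller for it.

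On A, both kidney 4 and kidney 5 lay above all of kidneys 1 to 3 for 7 of 40 member probe sets (all tested: 8.82%) and below all of them for 2 (all tested: 10.1%). The 7 belonged to Psma2, Psma4, Psmb1, Psmc3, Psmd1, Psmd11 and Psme1, the 2 to Psmc5 and Psmd4, and all 9 were singled out after their values were seen. The ATPase Psmc3 stood furthest out, at 1279.8, 1164.2 and 1019.4 in kidneys 1 to 3 and 1610.0 and 1588.7 in kidneys 4 and 5. Psmb1 measured 2443.4, 2016.7 and 2196.2, then 2469.2 and 2785.5. As the strain of kidneys 4 and 5 is unsettled on this design, no comparison between strains was made from it.

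On B the core had 3 tested probe sets, with medians of −0.10, 0.10 and −0.03 in Dahl S kidneys, 0.16 in congenic kidney 4 and −0.01 in congenic kidney 5. The 7 regulatory probe sets had −0.07, 0.10 and 0.00 in Dahl S, and 0.09 and 0.13 in congenic kidneys 4 and 5. On C the 5 core probe sets had 0.03, −0.06 and 0.05 in Dahl S, then −0.12 and 0.07, and the 4 regulatory probe sets 0.04, −0.05 and 0.03, then −0.07 and −0.06. On B the congenic medians of the core in kidney 5 and of the regulatory particle in kidney 4 lay inside the range of the Dahl S kidneys. The core in kidney 4 and the regulatory particle in kidney 5 lay above it. On C all congenic medians lay outside the Dahl S range, those of the regulatory particle below it. The core on C was below it in kidney 4 and above it in kidney 5.

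**Figure D3:**
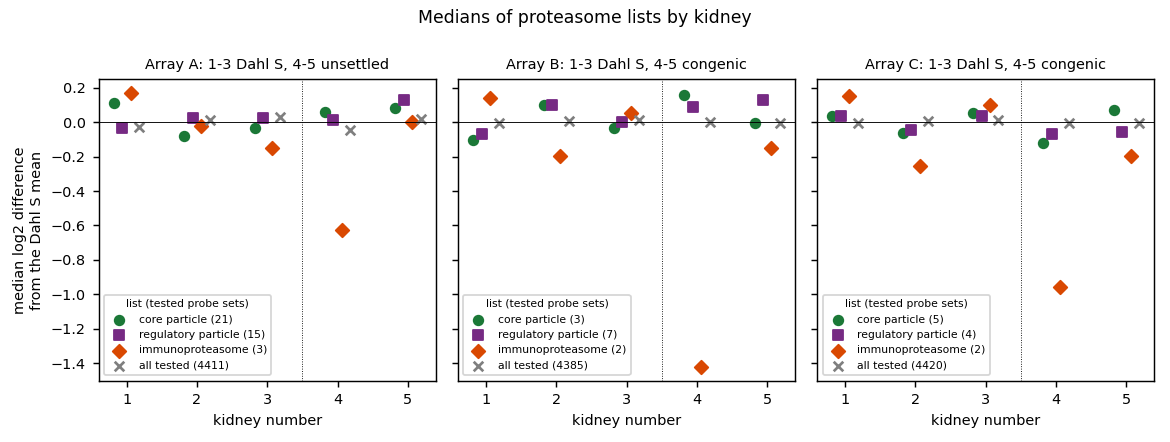
Median log2 difference from the Dahl S mean, by kidney, for the core particle, the regulatory particle, the 3 immunoproteasome subunits (Psmb8, Psmb9 and Psmb10) and all tested probe sets of each array; the number of tested probe sets is in the legend. Core and regulatory medians stay between −0.12 and 0.16, while the immunoproteasome median of kidney 4 is −0.62 on A and −0.96 on C. Its point for kidney 4 on B includes Psmb10 at the floor, so its height is set by the floor.

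The immunoproteasome subunits were low in the kidney numbered 4 on each design. The labels do not say whether a number stands for the same kidney on all designs. In kidney 4 all 3 tested probe sets on A, 2 on B and 2 on C lay below the Dahl S mean. The median was −0.62 on A and −0.96 on C, where the constitutive core had 0.06 and −0.12. On B Psmb9 was at −0.50 in kidney 4 and Psmb10 was below the floor, so no median is given, and the core had 0.16. Psmb9 on B measured 1068.5, 991.7 and 1166.6 in Dahl S kidneys and 761.4 and 829.0 in congenic kidneys (limma unadjusted p = 0.0182, adjusted p = 0.998). Psmb10 on B measured 868.6, 588.7 and 708.2 in Dahl S, 29.9 in kidney 4, which is below the floor of 140.1, and 750.1 in kidney 5. The strain difference fitted for Psmb10 moved with the floor, from −2.01 with a floor at the 10th percentile to −0.56 with one at the 40th. In kidney 5 the medians were 0.00, −0.15 and −0.20. Psmb9 was there at −0.34 and 0.07 on A, −0.37 on B and −0.22 on C. The difference between constitutive and immunoproteasome subunits in single kidneys was not tested.

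In kidney 4, 5 of the 6 tested leukocyte marker probe sets on A (all tested: 2479 of 4411) lay below the Dahl S mean. All 3 tested on B did so too (all tested: 2177 of 4385). Several of those on A belong to 1 gene, Cd74. Lyz2 on A and Fcer1g on B were near the mean in kidney 4, at 0.01 and −0.01. On A the 6 tested probe sets of 11 had medians of 0.29, −0.25 and −0.04 in kidneys 1 to 3, −0.43 in kidney 4 and −0.05 in kidney 5, and on B the 3 tested of 5 had 0.28, −0.33 and 0.04, then −0.60 and −0.05. Their summed signal over the list on A was between 25082 and 33900 in Dahl S kidneys, 21586 in kidney 4 and 28242 in kidney 5. On B it was between 8338.8 and 12746 in Dahl S and 8763.5 and 10821 in congenic kidneys. On C the 6 tested of 8 had 0.17, −0.24 and 0.13, then 0.02 and 0.26, with sums between 8554.1 and 11308 in Dahl S and 10507 and 8705.7 in congenic kidneys. The T cell marker Cd3e was below the floor in all 5 kidneys by 1 probe set on B and between 237.8 and 316.4 by the other. On C its tested probe set measured 922.0, 861.9 and 781.7 in Dahl S and 1313.2 and 1039.0 in congenic kidneys (limma unadjusted p = 0.0249, adjusted p = 0.775). The other Cd3e probe set on C was too low for testing, with 3 of 5 values below the floor. It did not go the same way, at 201.3, 67.6 and 205.3 in Dahl S and 88.5 and 82.4 in congenic kidneys. On A the B cell marker Cd79b and 2 probe sets of Ptprc, the common leukocyte antigen, were below the floor in 4 of 5 kidneys. The part of leukocyte content in the proteasome values was not tested.

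Some constitutive probe sets had kidneys 2 and 4 lowest: Psmb4 by L17127 on A (above), and Psmd14 and 1 Psmd11 probe set on B. So did 1 probe set each of Psma7 and Psmd1 on A, both tested ones of Psme2 on B, and Psmd5, Psmd6 and Psmd8 on C. The share of all tested probe sets with kidneys 2 and 4 lowest was not counted. In kidney 4 the leukocyte marker median was −0.43 on A, −0.60 on B and 0.02 on C. Psmd14, the deubiquitinase of the regulatory particle, measured 954.0, 523.6 and 901.6 in Dahl S and 653.4 and 817.5 in congenic kidneys. The Psmd11 probe set rc_AA946509_at measured 2660.7, 1784.7 and 3282.5, then 2018.6 and 2980.5. Of the 3 tested leukocyte markers on B, Laptm5 measured 2967.4, 1515.2 and 2775.5, then 1412.6 and 2861.9, and C1qa also had kidneys 2 and 4 lowest. Fcer1g did not, with 5542.0 in kidney 4 and 5404.8 in kidney 5. These probe sets were singled out after their values were seen, and whether they move with leukocyte content was not tested.

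Congenic and Dahl S kidneys were compared on B and C to ask whether the chromosome 10 segment goes with a difference in these genes. No tested member had an adjusted p under 0.05, which does not show that none differed. The 95% intervals of members reached from −0.775 to 0.725 on B and from −0.566 to 1.21 on C (log2). With limma and Benjamini-Hochberg adjustment over the whole design, 0 of 15 tested members on B (all tested: 0.0912%) and 0 of 15 on C (all tested: 0%) had an adjusted p under 0.05, and the smallest adjusted p was 0.998 on B and 0.865 on C. At an unadjusted p under 0.05 there was also none on B (all tested: 3.49%) or C (all tested: 6.2%). Differences of members lay between −0.28 and 0.24 on B and between −0.22 and 0.34 on C (log2, congenic minus Dahl S), with a median 95% interval of ±0.37 on B and ±0.36 on C. A difference smaller than the half-width of its interval could not be told from 0 with 5 arrays. The intervals are not adjusted for the number of probe sets, so larger differences could also miss the threshold. The immunoproteasome gene Psmb9 on B did so, with a difference of −0.43 (limma adjusted p = 0.998).

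The median difference of the core was 0.05 on B and 0.00 on C, and that of the regulatory particle 0.08 on B and −0.04 on C, beside −0.01 for all tested probe sets on each design. The regulatory median on B was 0.17 without Dahl S kidney 2, 0.13 without congenic kidney 4 and 0.15 with a filter at the 75th percentile. That on C was −0.07 without congenic kidney 5 and −0.02 with quantile normalisation or with no filter on low values. Above 0 were 2 of 3 core, 4 of 7 regulatory and 9 of 15 member probe sets on B (all tested: 48.6%), and 2 of 5, 1 of 4 and 6 of 15 on C (all tested: 47.9%). Congenic values lay above all Dahl S values for 3 members on B (all tested: 7.73%) and 1 on C (all tested: 10.2%). They lay below all Dahl S values for 0 members on B (all tested: 9.44%) and 2 on C (all tested: 12.2%).

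**Figure D4:**
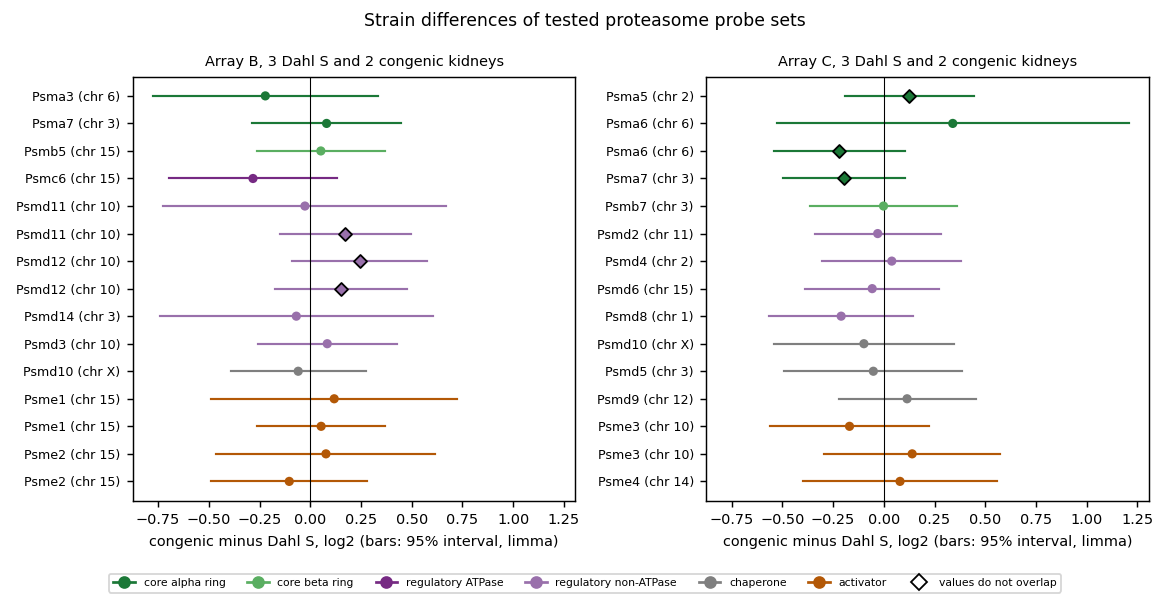
Difference of congenic from Dahl S kidneys (log2) for each tested member on arrays B and C, with its 95% interval from limma as a bar; colours give the role and diamonds mark probe sets whose strain values do not overlap. Every interval includes 0, and the 3 diamonds on B are probe sets of Psmd11 and Psmd12.

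The members whose strain values did not overlap on B were all regulatory particle genes encoded on chromosome 10. Psmd12, a scaffold subunit of the lid of the regulatory particle, measured 3428.7, 3905.9 and 3601.5 in Dahl S kidneys and 4593.7 and 4049.4 in congenic kidneys by rc_AA957682_f_at. The difference was 0.24 (SE 0.14, 95% interval −0.09 to 0.58, limma adjusted p = 0.998), a fold of 1.18. Both congenic kidneys lay above the 3 Dahl S kidneys, and kidney 4 was the highest. By rc_AI044322_at Psmd12 measured 2270.3, 2612.3 and 2274.7 in Dahl S and 2661.8 and 2623.6 in congenic kidneys, a difference of 0.15 (SE 0.14), with kidney 2 close to the congenic values.

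Psmd11, another lid subunit, measured 4828.5, 5528.5 and 5413.2 in Dahl S and 6101.3 and 5740.6 in congenic kidneys by rc_AA964617_at on B (difference 0.17, SE 0.14, interval −0.15 to 0.50, limma adjusted p = 0.998). On A the Psmd11 probe set measured 2735.1, 3351.9 and 3244.3 in kidneys 1 to 3 and 3610.1 and 3625.0 in kidneys 4 and 5. On both designs kidney 1 was lowest, kidneys 2 and 3 next, and kidneys 4 and 5 highest. The other tested Psmd11 probe set on B, rc_AA946509_at, did not show this order, with a difference of −0.03 (SE 0.29).

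Psmd3, a further lid subunit of chromosome 10, measured 1499.4, 1760.2 and 1450.4 in Dahl S and 1666.1 and 1649.5 in congenic kidneys, and its values overlapped (difference 0.08, SE 0.14). Of the 5 tested member probe sets of chromosome 10 on B, 3 had congenic values above all Dahl S values, and for all 322 tested probe sets of that chromosome the share was 10.6%. Those 3 come from 2 genes, and probe sets of one gene share the transcript they measure. On C the tested members of chromosome 10 were a pair of Psme3 probe sets, which differed in sign.

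**Figure D5:**
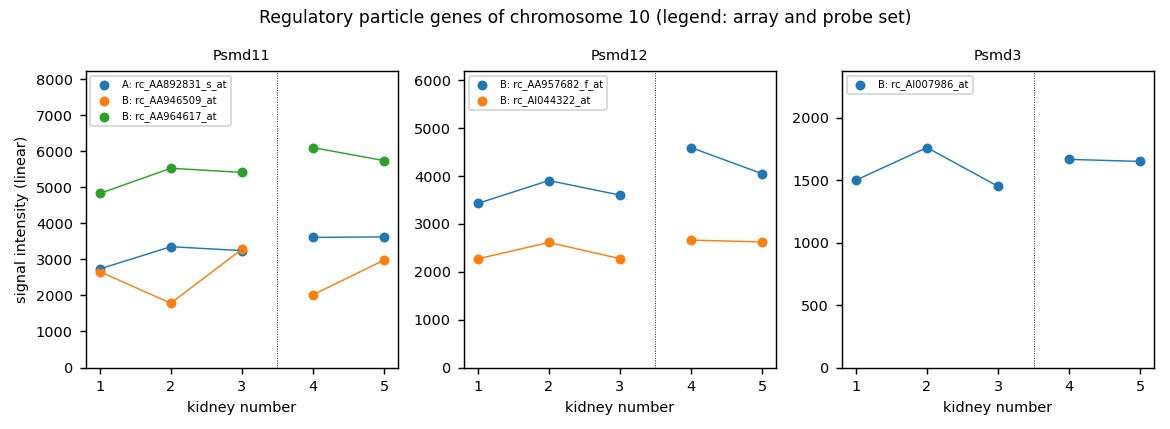
Linear signal by kidney for every tested probe set of the chromosome 10 regulatory particle genes Psmd11, Psmd12 and Psmd3 on arrays A and B; kidneys 1 to 3 are Dahl S, kidneys 4 and 5 congenic on B and of unsettled strain on A. Kidneys 4 and 5 are highest for Psmd12 and for 2 of the 3 Psmd11 probe sets, while rc_AA946509_at has kidneys 2 and 4 lowest.

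None of the 15 tested members on B was close to the threshold (limma adjusted p = 0.998 for each), and the others named by the smallest p follow. The ATPase Psmc6 measured 613.6, 773.0 and 688.5 in Dahl S and 641.4 and 499.9 in congenic kidneys (difference −0.28, SE 0.17, interval −0.70 to 0.13). Its low value came from kidney 5. Psma3, an alpha subunit, had the same kidney lowest, at 539.1, 605.3 and 551.1 in Dahl S, 630.6 in kidney 4 and 371.7 in kidney 5. For Psma7 on B the values were 842.5, 1053.8 and 906.4, then 1045.1 and 925.5, with congenic kidneys inside the Dahl S range (difference 0.08, SE 0.15).

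On C the non-overlapping members were alpha ring genes. Psma7 measured 6074.1, 5985.2 and 6050.4 in Dahl S and 5278.6 and 5253.0 in congenic kidneys, a difference of −0.20 (SE 0.13, interval −0.50 to 0.10, limma adjusted p = 0.865) and a fold of 1.15. The values within each strain were close, with an SD of 46.0 for Dahl S (n = 3) and 18.1 for congenic kidneys (n = 2). Without a filter on low values the limma adjusted p of Psma7 was 0.0963. The Psma7 probe set on B, with congenic kidneys inside the Dahl S range, did not show this. On A, where their strain is unsettled, kidneys 4 and 5 were the lowest and the highest by D30804_at. By D30804_g_at Psma7 on A measured 3502.8, 2461.8 and 3198.2 in kidneys 1 to 3, then 3147.0 and 3476.0.

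Psma6, an alpha subunit, measured 1986.9, 1911.8 and 2104.4 in Dahl S and 1812.9 and 1628.8 in congenic kidneys by rc_AI112633_s_at (difference −0.22, SE 0.14, limma adjusted p = 0.865). The other Psma6 probe set on C had 1 low Dahl S value, at 1094.2, 459.2 and 1116.5, then 1007.1 and 1081.8, and a difference of 0.34 (SE 0.37). On A Psma6 measured 3757.4, 3379.9 and 3296.7, then 3701.9 and 3669.1, all within 1.14-fold. Psma5 on C measured 4434.5, 4085.1 and 4494.8 in Dahl S and 4907.9 and 4557.9 in congenic kidneys, without overlap (difference 0.13, SE 0.14, limma adjusted p = 0.891). On A the Psma5 probe sets placed kidneys 4 and 5 at 923.6 and 1030.7 beside 803.1 to 1016.4, and at 2390.0 and 2326.8 beside 1928.8 to 2526.4.

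Among the regulatory genes of C, Psmd8, a lid subunit, measured 4166.8, 3480.0 and 4353.9 in Dahl S and 3384.5 and 3500.7 in congenic kidneys (difference −0.21, SE 0.15), so that kidney 2 lay with the congenic kidneys. Psmd6, also of the lid, measured 3473.6, 3161.1 and 3756.8, then 3291.1 and 3350.9 (difference −0.06, SE 0.14). The catalytic subunit Psmb7 had a mean of 4585 ± 446 in the Dahl S strain (SD, n = 3) beside 4583 ± 545 for the congenic strain (SD, n = 2), and an interval of −0.36 to 0.36.

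Chaperones that assemble the regulatory particle were tested on B and C. Psmd10, an ankyrin repeat protein that binds an ATPase of the base, measured 2141.5, 2403.2 and 2187.8 in Dahl S and 2011.4 and 2299.9 in congenic kidneys on B, and 2179.8, 1790.0 and 1464.8, then 1605.5 and 1738.0, on C. On A its only probe set was just below the limit for testing, at 291.1 to 324.3. Psmd9 measured 1214.7, 1009.4 and 1123.1, then 1235.1 and 1174.8 on C, and Psmd5 3844.3, 2969.2 and 3501.3, then 2834.0 and 3840.0. Their differences lay between −0.10 and 0.11 and none passed the threshold (limma adjusted p of 0.911 or more).

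The activators Psme1 and Psme2 form the interferon-inducible cap. On A Psme1 measured 10236.9, 9569.8 and 8969.5 in kidneys 1 to 3 and 9387.6 and 9268.3 in kidneys 4 and 5 by D45249_at, and 5563.5, 4922.5 and 5156.7, then 5828.4 and 5642.1 by D45249_g_at. Psme2 on A measured 1289.3, 1528.0 and 1619.0, then 1532.1 and 1732.9. In kidney 4 on A, where the immunoproteasome median was −0.62, the Psme1 probe sets were at −0.03 and 0.16 from the Dahl S mean and Psme2 at 0.06 (log2).

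On B the Psme1 probe set rc_AA848487_s_at ranged widely in Dahl S, at 11243.8, 8850.5 and 6133.6, with 8906.9 and 9514.8 in congenic kidneys. The other, rc_AA899618_at, was narrow, at 1190.2, 1316.1 and 1228.2, then 1342.5 and 1241.0. Psme2 on B measured 4859.9, 3022.5 and 4379.9 in Dahl S and 3906.4 and 4575.6 in congenic kidneys by rc_AA851169_s_at. By rc_AI011981_g_at it measured 7702.3, 5995.0 and 7293.6, then 6115.3 and 6857.8. Kidney 2 was lowest and kidney 4 next on both, with kidney 4 at −0.04 and −0.19 from the Dahl S mean (log2). The differences of these 4 probe sets were between −0.10 and 0.12.

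Psme3, the nuclear activator, and Psme4, a large activator of the open core, were tested on C. Psme3 measured 1428.2, 1369.3 and 1778.3 in Dahl S and 1453.0 and 1249.9 in congenic kidneys by rc_AI233766_at (difference −0.17, SE 0.17), and 1802.8, 1914.7 and 1326.9, then 1817.5 and 1841.9 by rc_AI237609_at (difference 0.14, SE 0.19). Kidney 3 was thus highest on one and lowest on the other. Psme4 measured 1686.7, 2087.0 and 1477.2, then 1571.9 and 2133.1 on C. On A Psme4 read 702.9, 773.7 and 874.5 in kidneys 1 to 3, 469.8 in kidney 4, its lowest value, and 808.0 in kidney 5.

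Genes that assemble or assist the proteasome were taken from a list. Of the assembly and associated proteins, 0 of 8 tested probe sets on B and 0 of 5 on C passed the threshold, with median differences of −0.07 and −0.02. Psmg4, an assembly chaperone of the core, measured 3959.1, 3683.4 and 4140.3 in Dahl S and 4843.6 and 4500.3 in congenic kidneys on B (difference 0.25, SE 0.13, limma adjusted p = 0.998), without overlap. On C the Psmg4 difference was −0.09 (SE 0.21). Others named by p were Txnl1 (−0.17) and Psmg3 (−0.17) on B and Adrm1 (0.23) and Ube3c (0.19) on C.

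Of the genes for ubiquitin, its shuttles, the segregase Vcp with its cofactors and the transcription factors of the proteasome genes, 0 of 7 on B and 0 of 10 on C passed, with medians of 0.06 and 0.01. Nfe2l1, the transcription factor that raises proteasome gene expression when proteasome activity falls, is encoded on chromosome 10. By rc_AA851971_at on B it measured 4142.5, 3600.8 and 3890.1 in Dahl S and 4416.5 and 4757.8 in congenic kidneys (difference 0.24, SE 0.14, limma adjusted p = 0.998). By rc_AI071430_at on C it measured 580.7, 762.9 and 450.5, then 793.1 and 961.8 (difference 0.58, SE 0.23, unadjusted p = 0.0386, adjusted p = 0.775). Both congenic kidneys lay above the Dahl S kidneys on these, while the values of the other Nfe2l1 probe set on each design overlapped, with a difference of 0.08 on B and 0.12 on C.

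The shuttle Ubqln4 measured 1049.5, 976.1 and 1231.6 in Dahl S and 1529.4 and 1459.6 in congenic kidneys on C (difference 0.47, SE 0.15, unadjusted p = 0.0171, limma adjusted p = 0.775). Nploc4, a Vcp cofactor encoded on chromosome 10, measured 3257.8, 3611.2 and 2998.6, then 1255.7 in kidney 4 and 2725.2 in kidney 5 by rc_AI138093_at (difference −0.83, SE 0.30, adjusted p = 0.775), and its other probe set on C had −0.15. Rad23b, a shuttle, had a difference of −0.15 (SE 0.25) on B.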

How the data were processed

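The values deposited by the authors are linear signal intensities per probe set. Which software made them is not given in the sources used here. All arrays share a common trimmed mean and so came scaled, and whether a background was subtracted is unknown. That scale was kept. Designs A, B and C were handled apart. The 59 control probe sets were left out, lower values were set to the design's 25th percentile (85.1, 140.1 and 153.6 in that order) before log2, and probe sets whose mean reached the median signal (319.5, 485.8 and 510.3) were tested, 4411, 4385 and 4420 in all. The strains were compared on B and C with limma 3.58.1 in R 4.3.3 (lmFit and eBayes, no intensity trend), with p-values adjusted by Benjamini-Hochberg across the design and a threshold of 0.05. Differences and per-kidney medians are on the log2 scale after the floor, and intervals are the 95% intervals of limma.

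The members, the companion lists and the rule for named genes were chosen with earlier results of these data known. Values are given for the 3 tested members with the smallest p in each of core, regulatory particle, chaperones and activators on B and C. On A they are given for the 3 with the widest and the 3 with the narrowest Dahl S range in each particle. The tested activators on A and genes with several tested probe sets or designs are also given. Left out of these were the values of Psmc2, Psmd1 and a single probe set of Psmb5. The companion lists were immunoproteasome (Psmb8, Psmb9, Psmb10); assembly and associated proteins (Pomp, Psmg1, Psmg2, Psmg3, Psmg4, Psmf1, Adrm1, Sem1, Usp14, Uchl5, Ube3c, Ecpas, Txnl1, Zfand5); and ubiquitin, shuttles, Vcp and transcription factors (Ubb, Rps27a, Uba1, Rad23b, Ubqln1, Ubqln2, Ubqln4, Ddi2, Vcp, Ufd1, Nploc4, Nsfl1c, Nfe2l1, Nfe2l2, Ngly1). Some further genes of the last list are not reported here. Gene symbols and identifiers came from the annotation of the array platforms. Chromosomes and promoter sequences came from RefSeq, assembly GRCr8, matched by gene identifier or symbol. On simulated data with 200 changed probe sets, the procedure recovered 85.3% (B) and 95.1% (C) of log2 changes of 1. There were 10 simulations over 4385 and 4420 probe sets, with independent noise of the same SD for every probe set. In the data, the log2 SD over Dahl S kidneys ran from 0.0055 to 1.96 on B and from 0 to 1.75 on C. Recovery with such unequal spreads, or of smaller changes, was not simulated.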

Additional observations from a re-analysis of the deposited data

How the results depend on the processing

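The 0 members past the threshold on B and the 0 on C stayed 0 with quantile normalisation, robust variance with an intensity trend, a floor at the 10th or 40th percentile, no filter on low values, a filter at the 75th percentile, and without any 1 kidney. Smallest limma adjusted p-values over these settings were 0.771 (B, without congenic kidney 5) and 0.0963 (C, Psma7 without a filter). The median core difference on B was between −0.00722 and 0.16 when 1 kidney was left out, and on C between −0.12 and 0.0753, or −0.0992 with the filter at the 75th percentile, where 4 probe sets were left. On A the regulatory median of kidney 5 was 0.0818 with quantile normalisation and between 0.0865 and 0.14 without 1 Dahl S kidney, and that of kidney 4 between −0.0244 and 0.0401. Some differences turned sign when 1 kidney was left out. On B the ranges were −0.12 to 0.32 and −0.00317 to 0.11 for the Psme1 probe sets, −0.00722 to 0.17 for Psma7, −0.16 to 0.0372 for Psmd10, −0.60 to 0.16 for Psma3, −0.36 to 0.0529 for Rad23b, −2.34 to 0.0736 for Psmb10 and −0.37 to 0.0279 for Psmg3. On C they were −0.14 to 0.30 for Psme4, −0.12 to 0.00313 for Psmd6, −0.24 to 0.0449 for Psmd10, −0.27 to 0.17 for Psmd5, −0.0682 to 0.15 for Psmd4, −0.0221 to 0.24 for Psme3 (rc_AI237609_at), −0.22 to 0.61 for Ube3c, −0.0171 to 0.43 for Adrm1 and −0.28 to 0.0657 for Psmg4. Without congenic kidney 5, where kidney 4 is the one congenic sample and is assumed to vary like the Dahl S kidneys, Psmb10 on B (adjusted p = 0.0174) and Nploc4 on C (difference −1.39, adjusted p = 0.0354) passed with limma. Psmd11 (rc_AA964617_at), Psmd12 (rc_AA957682_f_at) and Nfe2l1 on B and Psma7 on C kept their sign in every setting named. Keeping the sign was common and not particular to these genes. Psmc6, Psmb9, Psme2 (rc_AI011981_g_at), Psmg4 and Txnl1 on B also kept it in those settings. On C, Psma5, Psma6 (rc_AI112633_s_at), Psmd8, Psmd9 and Ubqln4 kept it when 1 kidney was left out. The cause of the changes of sign was not tested. No paired analysis was possible because the Dahl S and congenic kidneys of a design share no number. The number of arrays, 5 per design, limits the precision.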
